A study of Mus musculus with 6 samples.

Results

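Cells make cholesterol from acetyl-CoA by the mevalonate pathway, which leads through squalene and lanosterol to the sterol itself, and they make fatty acids from the same precursor. Both routes are switched on by the sterol regulatory element binding proteins (SREBPs). When membrane sterol is low, SCAP escorts SREBP to the Golgi, where it is cut and released to the nucleus. When sterol is high, the INSIG proteins hold SCAP in the endoplasmic reticulum. The genes described here are 34 listed enzymes and regulators of these routes. A gene entered when the array annotation gave it a probe set with a single gene symbol, and its brightest probe set, by the mean of all 6 arrays, stood for it. By this rule 30 of the 34 genes were measured, out of 17097 genes in all. *Acat2*, *Pmvk*, *Srebf1* and *Scd2* were not analysed here.

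The arrays came from E14tg2a mouse embryonic stem cells (ESCs) carrying a doxycycline-inducible FLAG-tagged *Prdm14* cassette inserted with piggyBac. Epiblast-like cells (EpiLCs) were induced from ESCs over 2 days, and PRDM14, a PR-domain regulator of pluripotency and germ cell fate, was then switched on with doxycycline. There was 1 array for each of 6 conditions. Next to the ESC array stand 3 arrays of EpiLCs carrying a scramble shRNA, taken at day 2 (d2), at day 4 (d4) and with PRDM14 (EpiLCs + PRDM14). The last 2, one at day 2 and one with PRDM14, carry the label *Tet1*/*Tet2* KD, a knockdown of both TET dioxygenases. The label of the ESC array gives no shRNA, and those of the PRDM14 arrays give no day. The cells descend from picked colonies, and the shRNAs were delivered by lentivirus. With 1 array per condition no value has a replicate error, and no p-value is given.

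The culture medium changed with the cell state. The labels describe ESCs in serum medium with LIF, and the study's methods also give N2B27 with a GSK3 and a MEK inhibitor and LIF before induction, without saying which the ESC array came from. The labels give EpiLC induction in N2B27 with activin A, bFGF and a low share of knockout serum replacement. After day 2 the cells were replated in GK15 medium, with or without doxycycline. Between ESCs and EpiLCs (d2), and between day 2 and day 4, medium and state cannot be told apart. EpiLCs + PRDM14 and EpiLCs (d4) shared GK15, but the inducing doxycycline went with PRDM14, so drug and PRDM14 cannot be told apart. Levels are log2 robust multi-array average (RMA) signals, with a constant added to each array so that all medians are equal. The shift was 0.21 for both KD-labelled arrays, whose deposited medians were 5.07 against 5.28 to 5.29 for the rest, so KD and scramble levels may come from separate normalization runs.

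The arrays matched their cell states. *Klf4*, a naive pluripotency factor, measured 9.20 in ESCs and 5.25 in EpiLCs (d2), and *Pou3f1*, a primed marker, 4.90 and 9.01. The summed level of 8 naive markers ranged from 11.44 in EpiLCs (d2) to 13.09 in ESCs, and that of 7 primed markers from 10.53 with PRDM14 (scramble) to 12.29 at d4. Summed levels of the 10 extraembryonic endoderm markers stayed between 8.99 and 9.09, of 5 trophoblast markers between 8.38 and 8.62, and of 6 fibroblast markers between 7.29 and 7.71. Of 5 neural markers, *Tubb3* alone passed 1.5-fold between ESCs and EpiLCs (d2), at 8.04 and 5.94, and it measured 8.25 with PRDM14 (scramble). It lies outside the naming rule and was chosen after its values were seen. Its part in the results was not tested. *Prdm14* measured 6.95 in ESCs and 5.04 in EpiLCs (d2), against 4.94 (scramble) and 4.91 (KD-labelled) with PRDM14, so its single probe set was not raised in the PRDM14 arrays. Whether that probe set reads the cassette's transcript was not examined. *Tet2* measured 8.53 in EpiLCs (d2) and 8.71 in the KD-labelled EpiLCs (d2), and 8.51 and 7.97 with PRDM14. So *Tet2* was not lower by 1.5-fold in either KD-labelled array, and *Tet1* was not analysed here.

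SREBPs bind the sterol regulatory element, and they commonly act beside NF-Y, which binds the CCAAT box. Promoter windows of 300 bases, from 250 before to 50 after the annotated start, came from RefSeq (GRCm38.p6) and were matched by gene for 27 of the 34 listed genes. The element was searched as TCACNCCAC and the box as CCAAT, on both strands. The box lay in the windows of 21 of the 27 genes (77.8%), against 41.1% of all genes in the table. The element lay in 1 of 27, *Hmgcs1*, against 1.44% of all genes. Some genes have several windows, and a match to letters is a description, not a bound site. Shown here are the 5 windows of genes that were lower past 1.5-fold with PRDM14 than in EpiLCs at d2 or d4, and that of *Hmgcs1*, with each match in capitals. *Scd1* and *Fdft1* were lower by the same rule but had no window, so they were not searched. Read 5′ to 3′ on the gene's strand, a box on the opposite strand appears as ATTGG.
Insig1: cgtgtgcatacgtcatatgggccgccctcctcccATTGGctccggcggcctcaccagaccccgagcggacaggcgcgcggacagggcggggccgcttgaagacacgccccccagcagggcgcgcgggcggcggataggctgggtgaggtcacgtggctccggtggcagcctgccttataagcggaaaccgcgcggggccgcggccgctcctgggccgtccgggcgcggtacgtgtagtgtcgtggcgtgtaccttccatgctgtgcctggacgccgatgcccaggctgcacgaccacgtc
Cyp51: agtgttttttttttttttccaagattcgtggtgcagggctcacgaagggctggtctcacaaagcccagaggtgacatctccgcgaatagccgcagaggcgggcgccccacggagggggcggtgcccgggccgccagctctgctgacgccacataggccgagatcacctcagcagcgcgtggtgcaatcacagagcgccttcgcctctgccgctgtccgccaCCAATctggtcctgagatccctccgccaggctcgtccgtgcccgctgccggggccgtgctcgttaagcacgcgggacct
Msmo1: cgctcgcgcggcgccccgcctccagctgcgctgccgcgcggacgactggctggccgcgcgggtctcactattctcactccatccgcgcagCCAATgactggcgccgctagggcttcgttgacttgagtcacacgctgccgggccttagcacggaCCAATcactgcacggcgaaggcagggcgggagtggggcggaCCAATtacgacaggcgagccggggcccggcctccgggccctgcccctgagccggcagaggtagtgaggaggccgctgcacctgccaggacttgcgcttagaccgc
Lss: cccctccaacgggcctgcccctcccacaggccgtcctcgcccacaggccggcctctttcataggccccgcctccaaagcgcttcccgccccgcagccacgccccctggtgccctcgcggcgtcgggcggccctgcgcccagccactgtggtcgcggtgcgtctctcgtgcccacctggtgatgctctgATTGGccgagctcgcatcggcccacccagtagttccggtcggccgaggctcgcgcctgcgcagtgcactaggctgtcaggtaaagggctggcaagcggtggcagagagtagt
Sc5d: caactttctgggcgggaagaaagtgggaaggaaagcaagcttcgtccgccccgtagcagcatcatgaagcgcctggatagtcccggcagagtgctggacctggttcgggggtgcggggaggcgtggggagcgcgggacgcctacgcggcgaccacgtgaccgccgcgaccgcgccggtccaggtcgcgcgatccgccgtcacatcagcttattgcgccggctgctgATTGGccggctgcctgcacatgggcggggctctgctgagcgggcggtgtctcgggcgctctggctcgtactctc
Hmgcs1: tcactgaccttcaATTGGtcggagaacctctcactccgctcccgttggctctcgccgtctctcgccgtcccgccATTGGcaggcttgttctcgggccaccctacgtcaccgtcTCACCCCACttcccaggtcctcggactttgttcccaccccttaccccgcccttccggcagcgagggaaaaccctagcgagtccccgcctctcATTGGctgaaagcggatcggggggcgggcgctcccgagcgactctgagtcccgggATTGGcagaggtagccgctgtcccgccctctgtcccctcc
The windows were *Insig1* at chr5:28071162-28071461 (plus strand), *Cyp51* at chr5:4104648-4104947 (minus), *Msmo1* at chr8:64733529-64733828 (minus), *Lss* at chr10:76531355-76531654 (plus), *Sc5d* at chr9:42264251-42264550 (minus) and *Hmgcs1* at chr13:119690101-119690400 (plus). Counted from its first base, the box began 216 bases before the start in *Insig1*, 62 in *Lss*, 29 in *Cyp51* and 24 in *Sc5d*. *Msmo1* held 3 boxes, which began 55, 96 and 160 bases before the start. In *Hmgcs1* the element began 137 bases before the start, with boxes on either side of it, and no printed box overlapped the element.

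The first question was how the pathway stood in ESCs and in freshly induced EpiLCs. In EpiLCs (d2), 13 of the 30 genes were at least 1.5-fold higher than in ESCs and none was lower by that size. Over all genes, 2.35% were higher and 2.64% lower past the same threshold. The median difference of the 30 genes was 0.41 on the log2 scale, against 0.00 over all genes, and 27 of 30 differences were positive. The differences of 16 of the 30 lay above the 95th percentile of all genes, which was 0.38, and 0 lay below the 5th percentile. In bulk RNA a larger share of cells expressing a gene and more RNA per cell cannot be told apart.

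Among the enzymes from HMG-CoA to farnesyl diphosphate, 2 of 5 were higher past the threshold. *Mvd*, the decarboxylase that makes isopentenyl diphosphate, measured 6.68 in ESCs, 7.67 and 7.45 in EpiLCs at d2 and d4, 7.39 with PRDM14, and 7.85 and 7.78 in the KD-labelled arrays without and with PRDM14. *Fdps*, farnesyl diphosphate synthase, measured 9.79, 10.58, 10.47, 10.14, 10.19 and 10.03 in the same order. For both genes the ESC array was the lowest of the 6. The differences between EpiLCs (d2) and ESCs were 0.99 for *Mvd* and 0.79 for *Fdps*. *Idi1*, the isomerase between them in the pathway, measured 10.00 in ESCs and 10.44 in EpiLCs (d2), a difference of 0.44 that stayed within the threshold. *Mvk*, mevalonate kinase, ranged over the 6 arrays from 6.31 in ESCs to 6.87 in KD-labelled EpiLCs (d2). *Hmgcs1*, the cytosolic HMG-CoA synthase, had 1 probe set with levels of 3.45 to 3.88, below the median signal of 5.28, so little can be read from it. *Hmgcs1*, *Mvk* and *Idi1* were within 1.5-fold in all 9 comparisons.

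From squalene to cholesterol, 6 of 11 enzymes were higher in EpiLCs (d2) than in ESCs. *Lss*, lanosterol synthase, which closes the sterol rings, measured 4.10 in ESCs, 5.79 and 6.25 in EpiLCs at d2 and d4, 5.33 with PRDM14, and 5.39 and 5.17 in the KD-labelled arrays without and with PRDM14. Its ESC level was the lowest of the 6 and below the median signal. The measured difference between EpiLCs (d2) and ESCs was 1.70. With levels below the median signal raised to it, a setting added after the data were seen, the difference was 0.51, within the threshold, and 12 rather than 13 members were higher, where 2.13% of all genes were. *Cyp51*, the lanosterol demethylase, measured 7.85, 8.65, 8.49, 7.68, 8.51 and 7.58 in the same array order. It was high in the 3 EpiLC arrays without PRDM14 and low in ESCs and both PRDM14 arrays, which do not overlap with them.

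*Fdft1*, squalene synthase, measured 7.98, 8.83, 8.48, 8.19, 8.30 and 8.04 in that order. *Sqle*, squalene epoxidase and a flux-limiting step, measured 8.83, 9.46, 9.50, 8.99, 9.41 and 9.08. *Msmo1*, the methylsterol oxidase, measured 9.45, 10.16, 9.93, 9.42, 10.06 and 9.49. In all 3 genes the EpiLC arrays without PRDM14 were above the ESC array and both PRDM14 arrays. This order was also seen in *Cyp51* and in other members, among them *Fdps*, *Idi1*, *Insig1*, *Fasn* and *Scd1*. The share of all genes with it was not counted. The differences of *Fdft1*, *Sqle* and *Msmo1* between EpiLCs (d2) and ESCs were 0.85, 0.63 and 0.71. *Dhcr7*, the last reductase of one branch, measured 7.48, 8.19, 7.84, 7.67, 8.28 and 7.93, a difference of 0.71 between EpiLCs (d2) and ESCs. *Dhcr7* overlapped between the states, since the KD-labelled PRDM14 array was above EpiLCs (d4).

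The brightest probe sets of the other 5 enzymes of this segment stayed within the threshold at day 2. *Sc5d*, the sterol desaturase, fell just short with a difference of 0.56, at 6.78 in ESCs and 7.34 in EpiLCs (d2). Its other probe sets differed by 0.93 and -0.09, so its side of the threshold depends on the probe set. *Nsdhl*, a dehydrogenase of sterol demethylation, measured 8.03 and 8.29, and *Hsd17b7*, the ketosteroid reductase that follows it, 7.65 and 7.78. *Tm7sf2*, a sterol reductase, measured 6.75 and 6.90. *Ebp*, the sterol isomerase, ran the other way, at 7.79 in ESCs, 7.52 and 7.07 in EpiLCs at d2 and d4, 7.09 with PRDM14, and 7.61 and 7.59 in the KD-labelled arrays without and with PRDM14. Its ESC array was the highest of the 6.

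Of the 5 regulators and transporters, *Insig1* and *Stard4* were higher in EpiLCs (d2). *Insig1*, itself an SREBP target whose protein holds SCAP back, measured 8.99 in ESCs, 10.18 and 9.62 in EpiLCs at d2 and d4, 8.99 with PRDM14, and 9.49 and 8.67 in the KD-labelled arrays without and with PRDM14. Its ESC and scramble PRDM14 levels were equal to 2 decimals. *Stard4*, a cytosolic sterol carrier, measured 7.19, 7.96, 7.77, 7.52, 7.53 and 7.69. The differences between EpiLCs (d2) and ESCs were 1.18 for *Insig1* and 0.77 for *Stard4*. By their brightest probe sets, *Insig2*, *Srebf2* (which encodes SREBP2) and *Scap* were within 1.5-fold in all 9 comparisons. *Srebf2* ranged from 7.51 to 7.84, *Insig2* from 6.29 to 6.59 and *Scap* from 7.25 to 7.79 over the 6 arrays. Another probe set of *Insig2* was 0.60 higher in EpiLCs (d4) than in EpiLCs (d2) and differed by -0.58 between EpiLCs + PRDM14 and EpiLCs (d4).

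Of 9 fatty acid genes, 3 were higher in EpiLCs (d2) than in ESCs. *Scd1*, the stearoyl-CoA desaturase that makes monounsaturated fatty acids, measured 7.16 in ESCs, 8.71 and 8.33 in EpiLCs at d2 and d4, 7.51 with PRDM14, and 8.41 and 7.99 in the KD-labelled arrays without and with PRDM14. *Fasn*, fatty acid synthase, measured 9.18, 9.91, 9.71, 9.41, 9.78 and 9.19 in that order. *Acaca*, acetyl-CoA carboxylase, which commits acetyl-CoA to fatty acids, measured 8.0, 8.84, 8.38, 8.33, 8.78 and 8.15. ESCs were the lowest array for all 3 genes. The differences were 1.55 for *Scd1*, 0.84 for *Acaca* and 0.73 for *Fasn*, and a second probe set of *Scd1* differed by 0.76.

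By their brightest probe sets, the other 6 fatty acid genes stayed within the threshold in all 9 comparisons. *Acly*, which cleaves citrate to supply acetyl-CoA, was among the brightest members and measured 10.29 to 10.67. *Acss2*, which makes acetyl-CoA from acetate, measured 6.50 in ESCs and 6.0 to 6.38 elsewhere. *Elovl6*, an elongase, measured 8.83 to 9.63, and the desaturases *Fads1* and *Fads2* 7.07 to 7.84 and 7.11 to 7.52. *Lpin1*, a phosphatidate phosphatase, measured 6.16 to 6.42. *Fads1* and *Fads2* were both highest in EpiLCs (d2), and *Acss2* was highest in ESCs. Other probe sets of 3 of these genes passed 1.5-fold against ESCs. Those of *Fads2* were 0.87 and 0.91 higher in EpiLCs (d2) and 0.68 and 0.89 higher in EpiLCs (d4). That of *Acss2* differed by -0.59, -0.76 and -0.84 at d2, at d4 and with PRDM14, and that of *Lpin1* by 0.73 with PRDM14.

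**Figure D1:**
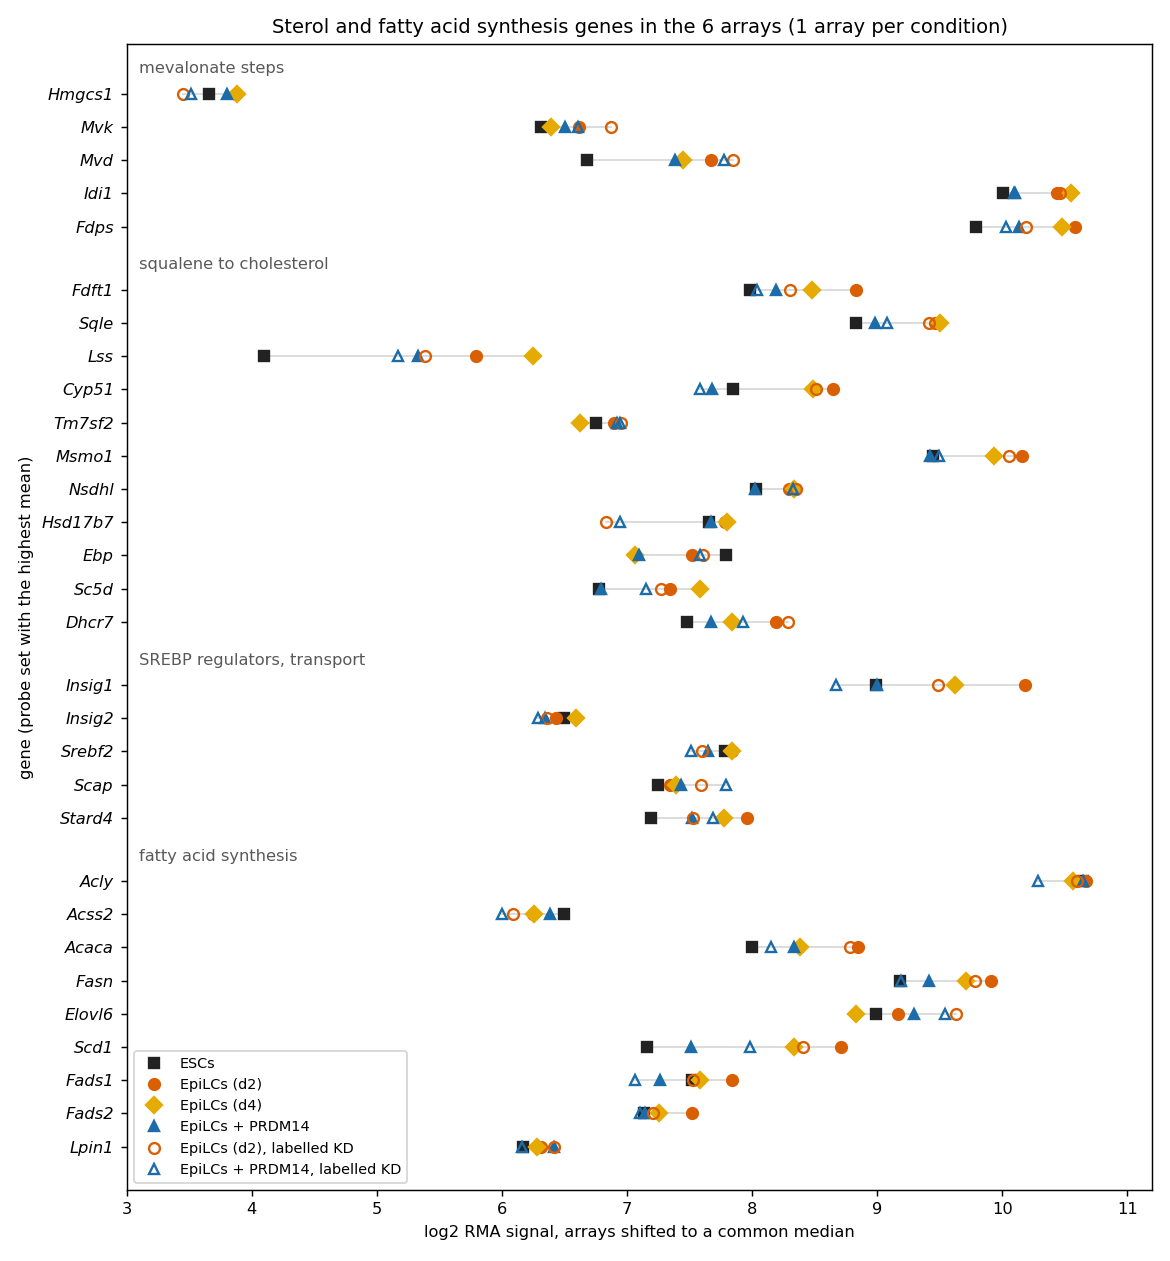
Level of each of the 30 measured genes in the 6 arrays, as log2 RMA signal after arrays were set to equal medians, with genes as rows grouped by role. Filled symbols are the ESC and scramble arrays, open symbols the arrays labelled *Tet1*/*Tet2* KD, and each point is 1 array. ESCs (squares) held the lowest level for 14 of 30 genes, and EpiLCs (d2) (filled circles) the highest for 13.

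The same values can also be counted by array, which is not an independent result. Over the 6 arrays, ESCs held the lowest level for 14 of 30 genes (46.7%), against 16.7% of all genes. EpiLCs (d2) held the highest level for 13 (43.3%), against 13.3% of all genes, and the lowest for 0. Within the 4 arrays outside the KD label, ESCs were lowest for 19 of 30 genes (63.3%, against 25.9%) and EpiLCs (d2) highest for 16 (53.3%, against 24.4%). The naive markers moved the opposite way over the same arrays, and their part in the result was not tested.

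Bright genes pass a fold threshold more often than dim ones. Among the 11245 genes with a probe set above the median signal, 3.36% were higher and 3.59% lower in EpiLCs (d2) than in ESCs. Of the 29 members among them, 13 were higher. These genes were not matched to the members by level, and the part of brightness in the result was not tested. Other probe sets of the called genes were available for 6 of the 13. Of those 8 probe sets, 7 moved in the same direction and 4 passed the threshold. A second probe set was higher by 0.81 for *Mvd*. The second probe sets of *Msmo1* and *Acaca* were dim, with mean signals of 3.69 and 4.86, below the median signal. They differed by 0.12 and -0.02, so those 2 calls rest on 1 probe set each.

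The next question was what happened with 2 more days of culture without PRDM14. Between EpiLCs (d4) and EpiLCs (d2), no member was higher and no member was lower past 1.5-fold, against 2.18% and 1.12% of all genes. The median difference was -0.18, and 20 of 30 differences were negative. *Insig1* came nearest to the threshold, at -0.56, followed by *Acaca* at -0.46 and *Ebp* at -0.45. *Lss* moved the other way by 0.46. Compared with ESCs, EpiLCs (d4) still had 8 genes higher and 1 lower, where all genes gave 4.19% and 3.37%. The 8 were *Lss* (2.15), *Scd1* (1.18), *Sc5d* (0.80), *Mvd* (0.76), *Fdps* (0.68), *Sqle* (0.68), *Cyp51* (0.64) and *Insig1* (0.63). *Ebp* was lower by 1.5-fold or more, at -0.72. This comparison was added after the values were seen, and it shares the ESC array with the comparison at day 2.

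The main question of the study was what PRDM14 does to EpiLCs. Against EpiLCs (d4), which shared GK15 but not the doxycycline, EpiLCs + PRDM14 had 5 of the 30 genes lower past 1.5-fold and 0 higher. Over all genes, 2.17% were lower and 1.86% higher. The median difference of the members was -0.22, and 22 of 30 were negative. The lower genes were *Lss* (-0.92), *Scd1* (-0.82), *Cyp51* (-0.81), *Sc5d* (-0.79) and *Insig1* (-0.62). They include 3 enzymes between squalene and cholesterol, 1 fatty acid desaturase and the INSIG regulator, and none of the 5 mevalonate genes. *Elovl6* was 0.46 higher, the largest positive difference among the members.

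Against EpiLCs (d2), which had neither GK15 nor doxycycline, the same array had 5 genes lower and 0 higher, where all genes gave 1.91% and 2.72%. The lower genes were *Scd1* (-1.20), *Insig1* (-1.18), *Cyp51* (-0.97), *Msmo1* (-0.73) and *Fdft1* (-0.64). The second probe set of *Scd1* differed by -0.28, within the threshold. The median was -0.40, and 25 of 30 differences were negative, 16 of them below the 5th percentile of all genes at -0.35. This comparison shares the PRDM14 array with that against day 4, and the EpiLCs (d2) array with that against ESCs, so the 3 are not independent. *Cyp51*, *Insig1* and *Scd1* were lower past the threshold against both day 2 and day 4. The second probe set of *Msmo1*, a dim one, differed by -0.02, so its call rests on 1 probe set.

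Of the 30 genes, 22 had a lower level in EpiLCs + PRDM14 than in both EpiLCs (d2) and EpiLCs (d4), where 35.1% of all genes did. For 16 of these 22 the level lay above that in ESCs, by 0.002 (*Insig1*) to 1.23 (*Lss*). The share of all genes with that order was not counted. Compared directly with ESCs, EpiLCs + PRDM14 had 2 genes higher, *Lss* (1.23) and *Mvd* (0.70), and 1 lower, *Ebp* (-0.70). All genes gave 2.9% higher and 2.25% lower, so these 3 calls are close to the background, and the median over the members was 0.15. A second probe set of *Mvd* differed by 0.46, and *Lss* by 0.04 with its ESC level raised to the median signal, both within the threshold. That comparison too was added after the values were seen.

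A lower level with PRDM14 was common among all genes that were higher in EpiLCs than in ESCs. The comparison between EpiLCs + PRDM14 and EpiLCs (d4) shares no array with that between EpiLCs (d2) and ESCs. Of the 13 members higher in EpiLCs (d2) than in ESCs, all 13 were negative in it, and 4 (30.8%) passed 1.5-fold. Of all 401 genes higher in EpiLCs (d2) than in ESCs, 80.3% were negative and 38.2% passed. The medians were -0.34 for the 13 and -0.40 for the 401. The primed markers moved the same way, with a summed level of 12.29 at d4 and 10.53 with PRDM14, and their part in the result was not tested.

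Other probe sets bore on 3 of the 5 genes lower against EpiLCs (d4). For *Cyp51* they differed by -0.89 and -0.18, and for *Scd1* by -0.22. For *Sc5d* 1 differed by -0.93 and the other by 0.01. *Lss* and *Insig1* had 1 probe set each. With the mean over all probe sets of a gene, 3 members were lower rather than 5, since *Sc5d* (-0.57) and *Scd1* (-0.52) no longer passed.

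**Figure D2:**
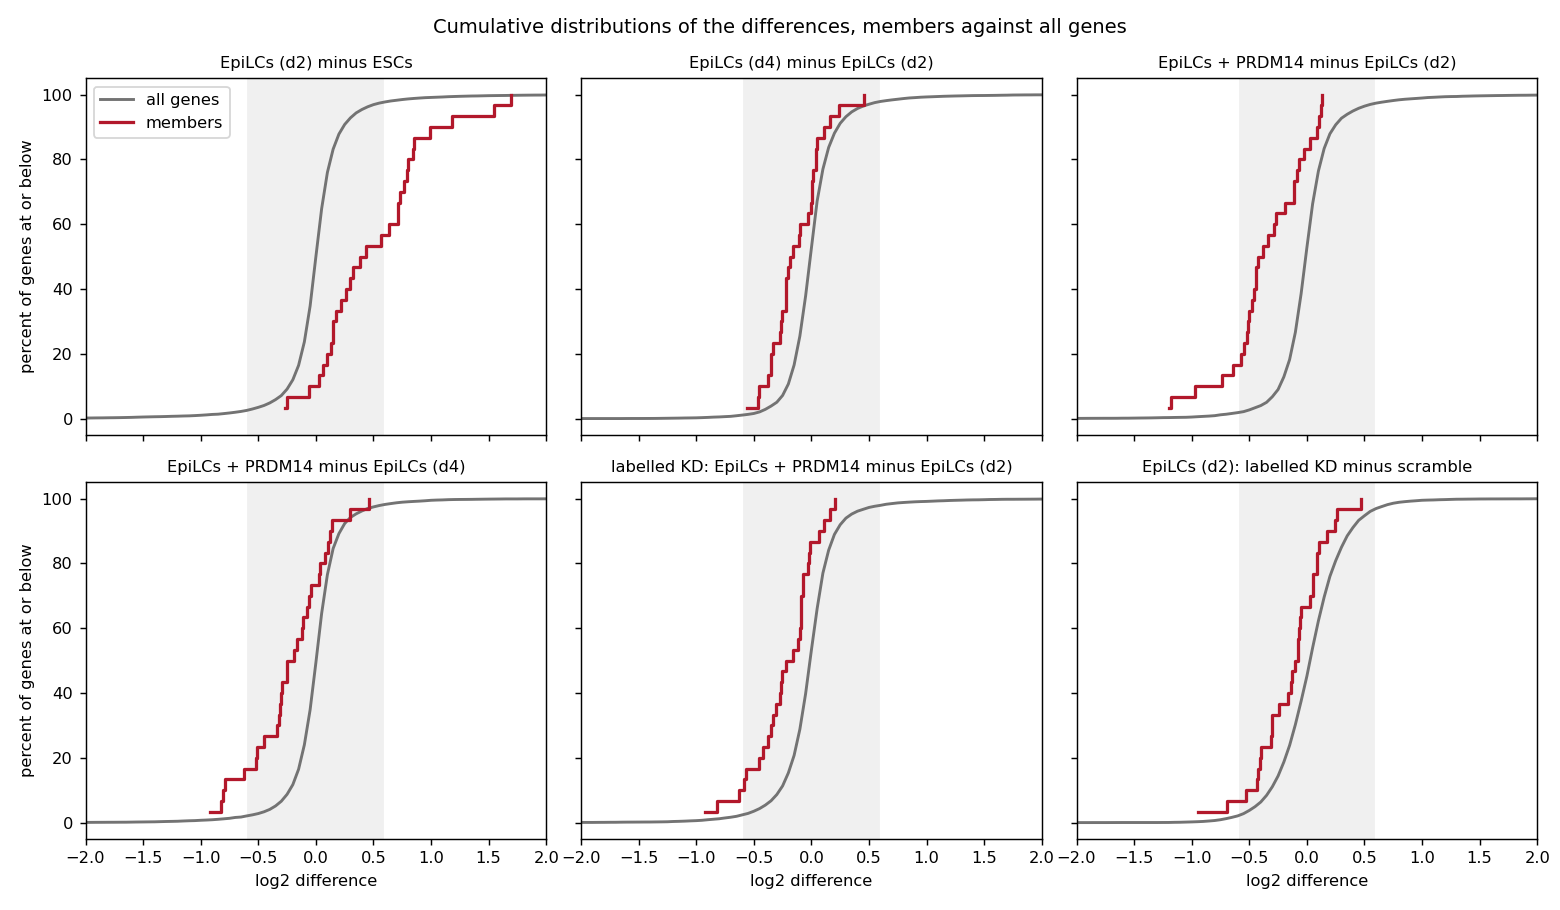
Cumulative distributions of log2 differences in 6 comparisons, with the 30 members in red and all 17097 genes in grey. The x axis is the log2 difference, the y axis the percent of genes at or below it, and the grey band marks differences within 1.5-fold. The members lie to the right of all genes in EpiLCs (d2) against ESCs (median 0.41) and to the left in EpiLCs + PRDM14 against EpiLCs (d2) (-0.40) and EpiLCs (d4) (-0.22).

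The arrays labelled KD gave a second pair with and without PRDM14, in cells where the TET enzymes were targeted. This pair has no day 4 array, so PRDM14 cannot be told apart from replating in GK15, doxycycline and time. Between the KD-labelled EpiLCs + PRDM14 and EpiLCs (d2), 4 of the 30 genes were lower past 1.5-fold and 0 higher, against 2.53% and 2.12% of all genes. They were *Cyp51* (-0.93), *Insig1* (-0.82), *Acaca* (-0.63) and *Fasn* (-0.59), and *Fasn* sat at the threshold and missed it after quantile normalization. The second probe set of *Acaca* differed by 0.20, the other way. The median difference was -0.19, and 26 of 30 were negative. In scramble arrays without PRDM14, the median between EpiLCs (d4) and EpiLCs (d2) was -0.18. *Insig1* and *Cyp51*, 2 of 30 members, were lower past 1.5-fold in both shRNA backgrounds, where 185 of 17097 genes were. These pairs of arrays share none, but both span the change to GK15. Both differences were negative for 22 of 30 genes (73.3%), where 34.0% of all genes were negative in both. Both were also negative for 19 of 30 genes (63.3%, against 28.1% of all genes) when the scramble pair was EpiLCs + PRDM14 and EpiLCs (d4). Most members were negative in each pair taken alone. Large overlaps follow from those counts and do not show agreement gene by gene.

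The sizes differed for some genes. The KD-labelled difference was above the scramble one, that is less negative or more positive, for 21 of 30 genes (70.0%, against 48.6% of all genes), with a median gap of 0.14. The widest gap was in *Scd1*, which was lower by 1.20 on the log2 scale in scramble arrays and by 0.42 in KD-labelled arrays. Its second probe set differed by -0.28 and -0.04, a smaller gap of 0.25. *Stard4* differed by -0.44 and 0.16, though by -0.11 and -0.17 in another of its probe sets. *Sc5d* differed by -0.55 and -0.12, and *Ebp* by -0.43 and -0.02. *Cyp51* differed by -0.97 and -0.93, which is nearly the same. Each gap holds the difference between the backgrounds at day 2 as well as that with PRDM14. The summed level of the naive markers was 12.04 in KD-labelled EpiLCs (d2) and 11.44 in scramble EpiLCs (d2). That of the primed markers was 11.90 and 12.23. The part of these day 2 differences in the gaps was not tested. With 1 array per condition none of these gaps has a test.

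**Figure D3:**
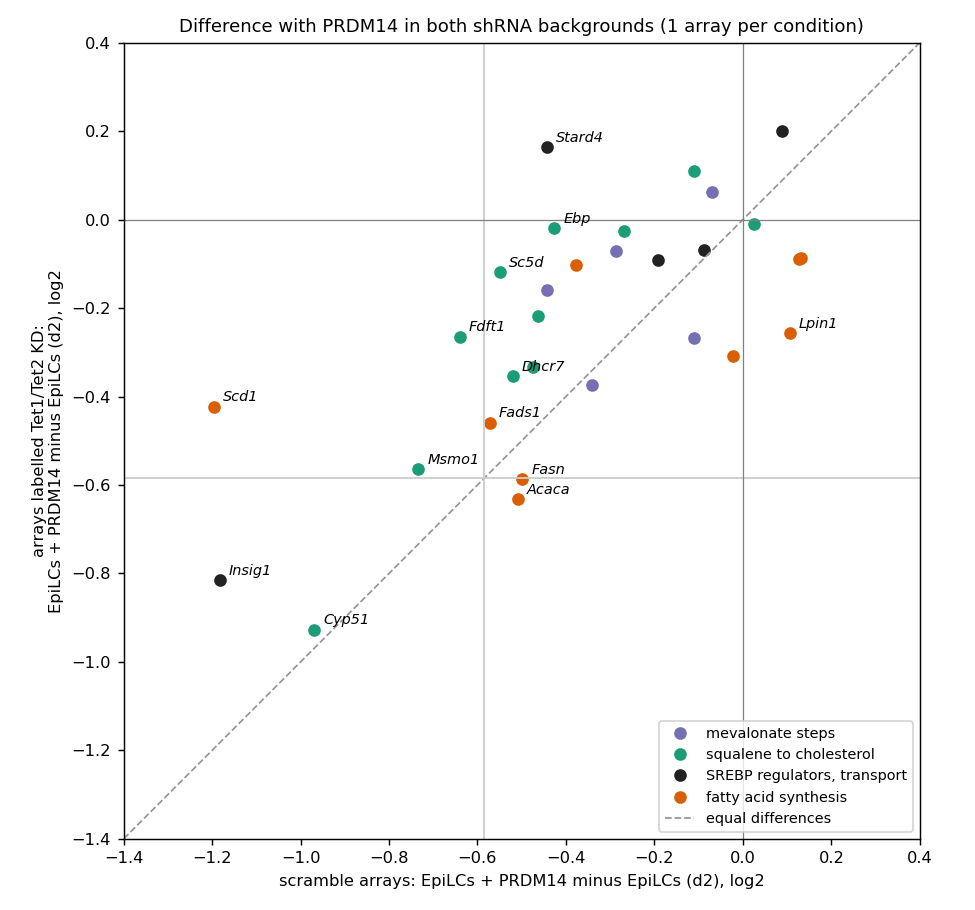
Log2 difference between EpiLCs + PRDM14 and EpiLCs (d2) in the scramble arrays (x axis) and in the arrays labelled *Tet1*/*Tet2* KD (y axis), with each point 1 of the 30 genes, coloured by role. The dashed line marks equal differences and the grey lines at the lower left 1.5-fold. *Insig1* and *Cyp51* pass 1.5-fold on both axes, and *Scd1* lies well above the dashed line. On both axes the 2 arrays also differ in medium and doxycycline.

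Set against their scramble counterparts, the KD-labelled arrays differed little in these genes. In EpiLCs (d2), 2 members were lower and 0 higher, against 2.25% and 3.3% of all genes. They were *Hsd17b7* (-0.95) and *Insig1* (-0.69). With PRDM14, 1 member was lower, again *Hsd17b7* (-0.73), and 0 higher, against 3.38% and 3.58%. *Hsd17b7* measured 7.65 in ESCs, 7.78 and 7.80 in EpiLCs at d2 and d4, 7.67 with PRDM14, and 6.83 and 6.95 in the KD-labelled arrays without and with PRDM14. Both KD-labelled arrays were below the other 4. Its other 2 probe sets differed by -0.42 and 0.15 in EpiLCs (d2) and by 0.04 and -0.03 with PRDM14, so the drop rests on 1 probe set. Without the shift of the arrays, 7 members rather than 2 were lower in the KD-labelled EpiLCs (d2), where 7.46% of all genes then were.

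Neighbouring pathways gave context. The lists hold genes for which a single-symbol probe set was found. Of 9 other sterol and isoprenoid genes and of 10 genes of sterol uptake and SREBP processing, 0 were higher or lower in EpiLCs (d2) than in ESCs. Over all genes, 2.35% were higher and 2.64% lower. *Npc1*, the lysosomal cholesterol exporter, was 0.58 higher in EpiLCs (d4) than in EpiLCs (d2), and *Npc2*, its partner, 0.45, both within the threshold. *Mbtps2*, a protease that releases SREBP, was 0.37 higher in EpiLCs + PRDM14 than in EpiLCs (d4). *Coq2*, of ubiquinone synthesis, was 0.81 higher in EpiLCs (d4) than in EpiLCs (d2), and *Lbr*, which has sterol reductase activity, was within the threshold with -0.31 between EpiLCs + PRDM14 and EpiLCs (d4).

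*Apoe*, a lipid-carrying apolipoprotein and target of the sterol-activated LXR receptors, measured 7.01 in ESCs, 7.22 and 8.84 in EpiLCs at d2 and d4, 7.92 with PRDM14, and 6.83 and 7.78 in the KD-labelled arrays without and with PRDM14. The 3 arrays of cells replated in GK15 were the highest. It was the only one of 8 efflux and LXR genes past 1.5-fold between EpiLCs (d4) and EpiLCs (d2), at 1.62, or between EpiLCs + PRDM14 and EpiLCs (d4), at -0.92. Over all genes, 2.18% were higher in the first comparison and 2.17% lower in the second. Among 9 lipid droplet and fatty acid binding genes, *Fabp3* and *Fabp5* were 1.57 and 1.13 higher in EpiLCs (d4) than in EpiLCs (d2). *Plin2*, a lipid droplet coat protein, was lower with PRDM14 than in EpiLCs (d4), at -0.82.

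Fatty acid activation moved with the synthesis genes in part. Of 26 acyl-CoA and glycerolipid genes, 5 were higher and 1 lower in EpiLCs (d2) than in ESCs, with a median difference of 0.15. Over all genes, 2.35% were higher and 2.64% lower. *Acsl4*, an acyl-CoA synthetase for polyunsaturated fatty acids, measured 6.98 in ESCs, 9.04 and 9.66 in EpiLCs at d2 and d4, 8.01 with PRDM14, and 7.91 and 7.39 in the KD-labelled arrays without and with PRDM14. *Acsl5*, a related synthetase, measured 6.45, 8.27, 8.59, 6.66, 7.57 and 6.92. Both were highest in EpiLCs (d4) and lowest in ESCs. With PRDM14 3 genes of the list were lower than in EpiLCs (d4), *Acsl5* (-1.94), *Acsl4* (-1.64) and *Acsl3* (-0.61), and 0 were higher. All genes gave 2.17% lower and 1.86% higher.

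Genes of mitochondrial beta-oxidation, the breakdown route, tended the other way in the ESC and scramble arrays. Of 16 genes, 5 were lower and 0 higher in EpiLCs (d2) than in ESCs, against 2.64% and 2.35% of all genes. The median was -0.32. Against EpiLCs (d4), EpiLCs + PRDM14 had 3 higher and 0 lower, where all genes gave 1.86% and 2.17%. The median was 0.29. Against EpiLCs (d2), EpiLCs + PRDM14 had 2 higher and 1 lower, where all genes gave 2.72% and 1.91%. The median was 0.33. The lower one was *Hadhb* (-0.73), a gene outside the naming rule that was chosen after its values were seen. In the KD-labelled pair 1 gene was higher and 0 lower, where all genes gave 2.12% and 2.53%. The median in that pair was 0.04, and 6 of 16 differences were negative. *Slc25a20*, the carnitine carrier of the inner membrane, measured 9.60 in ESCs, 7.65 and 8.10 in EpiLCs at d2 and d4, 9.24 with PRDM14, and 8.39 and 9.64 in the KD-labelled arrays without and with PRDM14. *Cpt1a*, which loads fatty acids for mitochondrial import, measured 8.60, 7.41, 7.27, 7.91, 7.43 and 7.40. *Acadm*, a dehydrogenase for medium chains, measured 10.66, 9.80, 9.43, 10.04, 9.93 and 10.07. *Slc25a20* was high in ESCs and both PRDM14 arrays, while *Cpt1a* was not raised in the KD-labelled PRDM14 array. Of 7 housekeeping genes none passed 1.5-fold in any of the 9 comparisons.

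**Figure D4:**
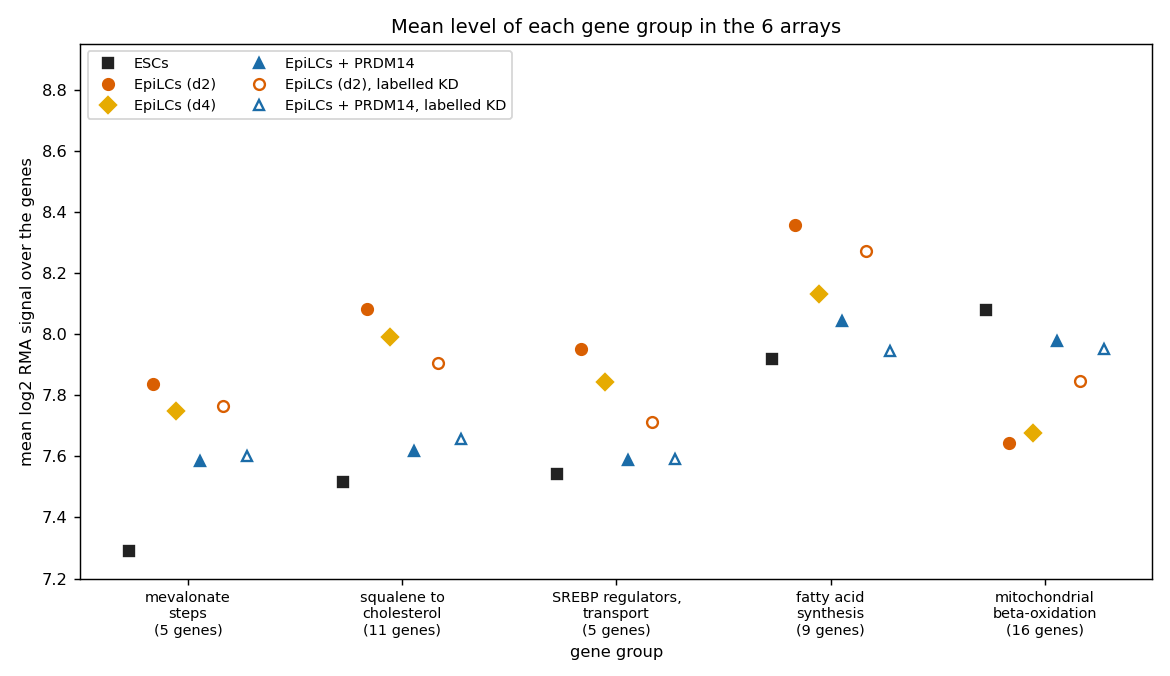
Mean log2 RMA signal over the genes of each group in the 6 arrays, with each point 1 array (filled, ESC and scramble; open, labelled KD). The y axis does not start at 0. The mean of the 11 squalene-to-cholesterol genes was 7.52 (ESCs), 8.08 (EpiLCs d2) and 7.62 (PRDM14), while that of the 16 beta-oxidation genes was 8.08, 7.64 and 7.98.

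Averaged over all 30 members the mean level was 7.60 in ESCs, 8.10 and 7.97 in EpiLCs at d2 and d4, 7.74 with PRDM14, and 7.96 and 7.72 in the KD-labelled arrays without and with PRDM14. Every EpiLC array without PRDM14 was above the ESC array and both PRDM14 arrays. The mean of all 17097 genes lay between 6.31 and 6.34. By their brightest probe sets 14 members were within 1.5-fold in all 9 comparisons, among them *Acly*, *Srebf2* and *Scap*. For 4 of the 14, *Insig2*, *Acss2*, *Fads2* and *Lpin1*, another probe set passed in at least 1 of them.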

How the data were processed

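RNA from 6 cultures was hybridized to Affymetrix mouse array strips, 1 array per condition. The authors made the deposited log2 signals by RMA, and the submitters' processing notes name Affymetrix Expression Console without a version. The medium and time of each culture are as the labels give them. Of 45141 probe sets, 104 controls were left out, 28898 had 1 gene symbol, 551 several and 15588 none here. The highest-mean probe set stood for each of 17097 genes. Array medians were made equal by adding a constant to each array (the shift). A gene was called at 1.5-fold between 2 arrays, with no p-value, since nothing is replicated, and precision is limited by how few arrays there are. Alternatives were a 2-fold threshold, no shift, quantile normalization, the mean over probe sets, probe sets above the median signal, no _x_at or _s_at probe sets and, added after the data were seen, levels below the median signal raised to it. The difference calculation was tested on simulated data.

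The 34 genes, the pathway and marker lists and the comparisons were chosen with earlier results of these data known. Named were all members and, of each other pathway list, up to 3 genes with the largest absolute difference between EpiLCs (d4) and EpiLCs (d2) and between EpiLCs + PRDM14 and EpiLCs (d4), of which the text gives some, and from the marker lists the first 4 naive and primed genes, of which it gives 2. Promoters were those of RefSeq (GRCm38.p6). No array or column was left out. Analyses used Python 3.11.15, pandas 2.3.3, numpy 2.4.6 and matplotlib 3.10.9.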

Additional observations from a re-analysis of the deposited data

Results flagged for a closer look

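The difference between EpiLCs + PRDM14 and EpiLCs (d2) had opposite signs in the scramble arrays and in those labelled KD for 7 of the 30 genes (23.3%, against 38.0% of all genes). Most members were negative in each background taken alone, and a low share of opposite signs follows from that. With 1 array per condition the difference between the backgrounds was not tested. For *Stard4* the KD-labelled difference exceeded the scramble one by 0.607 (-0.44 in scramble, 0.16 in KD-labelled arrays). Another of its 3 probe sets had the same sign in both (-0.11 and -0.17), and the other gave -0.41 and 0.06. For *Lpin1* the gap was -0.3625 (0.11 and -0.26). It was 0.2213 for *Hsd17b7* (-0.11 and 0.11) and 0.1323 for *Hmgcs1* (-0.07 and 0.06). It was -0.2179 for *Acss2* (0.13 and -0.09), -0.2152 for *Elovl6* (0.13 and -0.09) and -0.0346 for *Tm7sf2* (0.02 and -0.01). None of these 14 differences passed 1.5-fold.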

How the results depend on the processing

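No paired analysis was possible because each condition has 1 array. Of 180 recomputed counts and medians, 20 moved, a count by over 1.5 times or a median to outside the order-statistic interval of the members' median. That interval reflects the spread between genes, not the error of an array. Of the other 160, 1 changed sign, the median between the PRDM14 arrays labelled KD and scramble (-0.0441, and 0.02 with the mean over probe sets). Of 1611 recomputed differences of single members, 15 lost and 8 gained their call, and 0 changed direction while called. At a 2-fold threshold, 3 members were higher in EpiLCs (d2) than in ESCs (0.866% of all genes), 2 were lower with PRDM14 than in EpiLCs (d2) (0.474%) and 0 than in EpiLCs (d4) (0.719%). At 2-fold, 0 were lower in the KD-labelled than the scramble array of EpiLCs (d2) (0.216%) or PRDM14 (0.439%), and 0 between the KD-labelled PRDM14 and EpiLCs (d2) arrays (0.608%). Against ESCs at 2-fold, 1 was higher (1.08%) and 0 lower (0.766%) with PRDM14, and 2 were higher (1.81%) and 0 lower (1.32%) in EpiLCs (d4). With the mean over all probe sets, 3 were lower with PRDM14 than in EpiLCs (d4), 1 was lower in KD-labelled than scramble EpiLCs (d2) and 0 with PRDM14, and 1 was higher with PRDM14 than in ESCs. The last count was also 1 without _x_at and _s_at probe sets, and 1 with levels below the median signal raised to it, an alternative chosen after seeing the data. Without the shift, 7 members were lower in KD-labelled than scramble EpiLCs (d2) (median -0.3013) and 2 with PRDM14 (median -0.2578), where 7.46% and 9.58% of all genes were lower, as the offset of the deposited medians then enters each difference. Quantile normalization changed 1 count, from 4 to 3 members lower between the KD-labelled PRDM14 and EpiLCs (d2) arrays, and the restriction to probe sets above the median signal changed no count.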
